A study of Mus musculus with 12 samples.

Results

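The circular RNAs (circRNAs) described here are those made from genes for cytoskeletal motors and for proteins of the centrosome and centromere. A circRNA forms when the end of a downstream exon is spliced back to the start of an upstream exon, and the gene that gives rise to one is called its host. Members were chosen by gene symbol alone: any single host whose name begins with Kif, Myo, Cep or Tacc and a digit, or with Dync, Cenp or Tubgcp, other than Myo5a, Myo5b and Cep192. Of 4455 single hosts, 61 were members, with 167 of the 13474 circRNAs listed in the whole series, a total that includes circRNAs of several hosts. They comprise 20 kinesin (Kif) symbols, 9 myosin (Myo), 4 dynein (Dync), 18 centrosomal (Cep), 6 centromere (Cenp) and 3 Tacc symbols, and Tubgcp3. Kif1bp is counted with the kinesins by its symbol, although it encodes a protein that binds kinesins and not a motor. A total of 59 hosts had at least 1 read, and Cenpf and Kif20b were listed with none.

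The libraries came from total RNA treated with RNase R, an enzyme that digests linear RNA, in 3 libraries from each of 4 established mouse cell lines. In the mammary lineage, 4T1 breast cancer cells were compared with Eph4-ev breast epithelial cells, and in the melanocyte lineage, B16F10 melanoma cells with Melan-a melanocytes. No treatment is given for any line, and the labels do not say whether the libraries of a line came from separate cultures, so the p-values measure only the spread between these libraries. Each lineage has 1 tumour line and 1 non-tumour line, so the tumour state cannot be told apart from any other difference between the 2 lines. The libraries held 15572 to 56649 back-spliced junction reads in the mammary lineage and 16697 to 33557 in the melanocyte lineage. The third 4T1 library, with 44625 reads, was deeper than the other two, with 15572 and 17735. Circular RNA of 4 of 12 epithelial marker genes was present in both mammary lines, at summed levels of 1220 to 1748 RPM (reads scaled to 1000000 per library) in 4T1 and 1343 to 1746 RPM in Eph4-ev. Of 13 melanocyte markers, 9 had reads in B16F10 (10980 to 12840 RPM) and 10 in Melan-a (5684 to 9655 RPM), while 4T1 had none and Eph4-ev had reads of Mitf alone, at 0 to 88.26 RPM. Of the epithelial markers, Melan-a had reads of Esrp1 alone, at 0 to 39.89 RPM, and B16F10 had none. In all 4 lines the fibroblast and immune markers were at 0, and among endothelial markers only Pecam1 had reads, in Eph4-ev at 0 to 36.0 RPM. RPM here is the junction reads of a circRNA over all junction reads of its library, so it gives a share of circular RNA and not an amount per cell. In such bulk libraries fewer cells that express a gene and less RNA per cell cannot be told apart.

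Kinesins and cytoplasmic dynein carry cargo along microtubules, kinesins mostly towards the growing ends and dynein towards the centrosome, and several kinesins instead build or shorten the mitotic spindle. Myosins work on actin filaments, where they move membranes and organelles or pull on the cell cortex. The Cep proteins, Tubgcp3 and the Tacc proteins act at the centrosome, the main site of microtubule growth, and the Cenp proteins act at the centromere, where the kinetochore is assembled. Circular transcripts of such large, many-exon genes are counted only through their junction and are separate from the level of the linear mRNA, which was not analysed here.

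The sequences shown are those of the circRNAs that the results turn on: the Tacc2 circle, which had no read in either tumour line, the Kif26b circle, whose levels lay in opposite order in the 2 lineages, a pair of Kif23 circles that were each found in 1 line of a lineage, and 1 frequent circle each of an endosomal kinesin, a myosin, a dynein and a centriole protein. They were read 5′ to 3′ on the host's strand from GENCODE M21 transcripts, at coordinates of the mm10 build (GRCm38). Tacc2 exons 4 to 5 lie at chr7:130663016-130674739 on the plus strand and give a circle of 264 nucleotides, shown whole and with exon 5 in capitals. For the others the last 25 bases of the circle's last exon are in lower case and the first 25 of its first exon are in capitals, so that the change of case marks the back-spliced junction. Kif26b exon 3 lies at chr1:178678826-178679359 (plus strand), Kif23 exons 4 to 7 at chr9:61935380-61937535 and exons 16 to 21 at chr9:61919612-61925143 (minus), and Kif16b exons 16 to 17 at chr2:142739523-142740991 (minus). Myo10 exons 3 to 4 lie at chr15:25701562-25714216, Dync1h1 exons 49 to 51 at chr12:110651491-110652194 and Cep83 exons 8 to 10 at chr10:94748941-94750659, all on the plus strand. All 8 consist of coding exons only. Exons are numbered along the GENCODE transcript used for each host, whose exon ends match the junction.
Tacc2 circle, exons 4 to 5: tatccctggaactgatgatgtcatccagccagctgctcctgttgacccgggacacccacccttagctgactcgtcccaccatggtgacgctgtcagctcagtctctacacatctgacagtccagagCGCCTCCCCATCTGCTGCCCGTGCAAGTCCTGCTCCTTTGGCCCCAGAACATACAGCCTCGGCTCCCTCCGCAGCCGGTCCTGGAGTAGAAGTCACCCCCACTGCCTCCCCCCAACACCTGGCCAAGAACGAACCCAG
Kif26b junction, exon 3: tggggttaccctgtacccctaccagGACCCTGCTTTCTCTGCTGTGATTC
Kif23 junction, exons 4 to 7: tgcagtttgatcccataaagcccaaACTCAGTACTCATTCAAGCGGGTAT
Kif23 junction, exons 16 to 21: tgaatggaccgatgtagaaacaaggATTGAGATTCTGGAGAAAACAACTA
Kif16b junction, exons 16 to 17: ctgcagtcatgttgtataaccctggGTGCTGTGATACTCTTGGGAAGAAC
Myo10 junction, exons 3 to 4: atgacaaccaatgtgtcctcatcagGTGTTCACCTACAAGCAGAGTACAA
Dync1h1 junction, exons 49 to 51: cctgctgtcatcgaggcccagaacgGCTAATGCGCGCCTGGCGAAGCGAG
Cep83 junction, exons 8 to 10: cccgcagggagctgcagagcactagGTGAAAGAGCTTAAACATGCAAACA

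The summed level of the member circRNAs differed between the lines of a lineage by less than the spread of the libraries. It was 5259 ± 529.8 RPM (SD, n = 3) in 4T1 and 5178 ± 773.9 RPM in Eph4-ev, and 5910 ± 1383 RPM in B16F10 and 5160 ± 934.8 RPM in Melan-a. These sums stand for 77 to 329 reads per library, or about 0.516% to 0.591% of all junction reads on average. Thinned to an equal depth within each lineage, a library held 29 to 35 member circRNAs in 4T1, 28 to 36 in Eph4-ev, 35 to 47 in B16F10 and 26 to 41 in Melan-a, and the ranges overlapped in both lineages. Kif16b, Myo10, Cep128 and Cep350 had reads in all 12 libraries, and 22 hosts had reads in all 4 lines, while 13 had reads in 1 line only. Because 1 read stands for 17.7 to 64.2 RPM in a mammary library, a host at 0 in a library was below detection and is not shown to be absent.

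**Figure D1:**
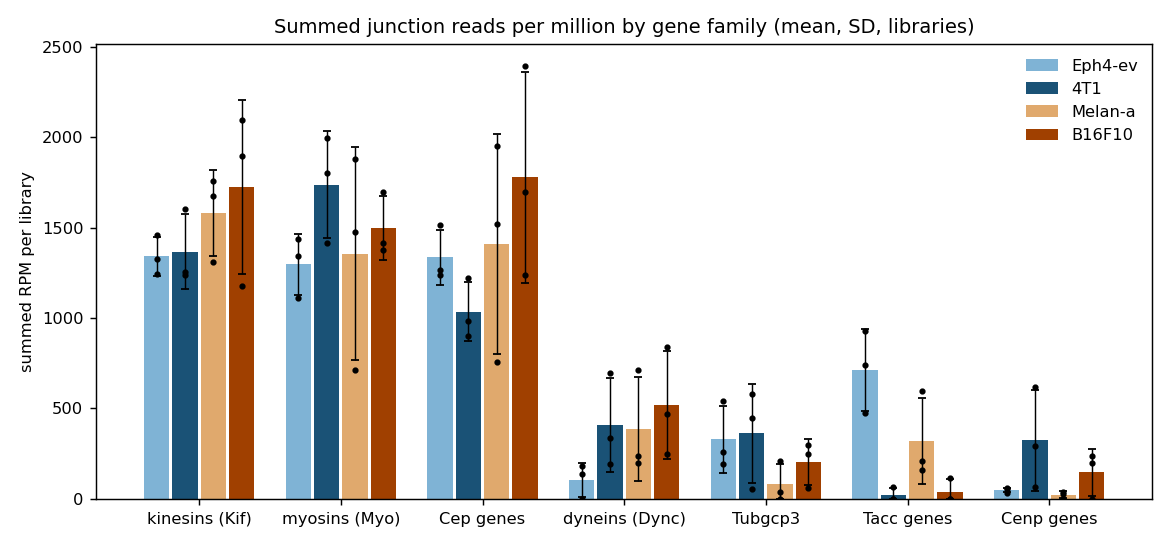
Summed RPM (vertical axis) of the 7 gene families (horizontal axis) in the 4 lines; bars are means, error bars SD and dots the 3 libraries. The kinesin, myosin and Cep sums lie between 1036 and 1778 RPM in every line, and the Tacc sum is 714 RPM in Eph4-ev and 22.4 RPM in 4T1.

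By family, kinesin circRNAs held 1367 ± 207 RPM in 4T1 and 1342 ± 108 RPM in Eph4-ev (SD, n = 3), and 1725 ± 482 RPM in B16F10 and 1582 ± 237 RPM in Melan-a. Myosin circRNAs held 1737 ± 297 RPM in 4T1 and 1298 ± 169 RPM in Eph4-ev, and Cep circRNAs 1036 ± 165 and 1337 ± 152 RPM. In the melanocyte lineage the myosins were at 1498 ± 176 RPM in B16F10 and 1356 ± 590 RPM in Melan-a, and the Cep genes at 1778 ± 582 and 1410 ± 607 RPM. The plot of family sums shows the libraries of the 2 lines of a lineage overlapping in these large families, except for the mammary Cep genes. There every Eph4-ev library lay above every 4T1 library (1236 to 1512 against 902 to 1220 RPM). That gap is smaller than the 64.2 RPM of 1 read in the first 4T1 library, which held the 1220 RPM. The small dynein and Cenp sums of 4T1 were also above those of Eph4-ev without overlap, at 192.7 to 694.7 against 0 to 180.0 RPM and 64.2 to 620.2 against 35.3 to 59.2 RPM. Both separations rest on few reads in the shallow first 4T1 library, where 1 read stands for 64.2 RPM. Its dynein sum was 2 Dync1h1 reads and 1 Dync1i2 read, and its Cenp sum was 1 Cenpa read. The highest Eph4-ev sums were 10 Dync1h1 reads and 3 Cenpc1 reads. The Tacc sum, most of it Tacc2, did not overlap in either lineage. Its levels were 0, 0 and 67.2 RPM in 4T1 and 476.6 to 928 RPM in Eph4-ev, and 0, 118 and 0 RPM in B16F10 and 159.5 to 596.3 RPM in Melan-a.

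Of the 61 hosts, few had reads enough for a test of the single host. In the mammary lineage 14 of the 48 hosts with reads passed the count minimum, and the other 34 had 1 to 33 reads in all. Among melanocyte hosts 5 of 50 passed, and the other 45 had 1 to 32 reads. By edgeR's quasi-likelihood test with Benjamini-Hochberg adjustment over all 1515 hosts tested, 1 mammary member was called at an adjusted p under 0.05, Tacc2, which was lower in 4T1, and none was higher. Over all hosts the test called 17.5% (6.86% higher and 10.6% lower in 4T1). At an unadjusted p under 0.05 there were 7 members (3 higher and 4 lower), against 31.2% of all hosts, and DESeq2 also called Tacc2 alone. In the melanocyte lineage none of the 5 members tested was called, against 7.13% of all 898 hosts (2.78% higher and 4.34% lower), none had an unadjusted p under 0.05, and DESeq2 called none. The median log2 fold change of the members that passed the minimum was -0.25 (all hosts -0.09) in 4T1 and 0.19 (all hosts -0.00) in B16F10. The plot of fold changes gives these hosts by lineage.

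**Figure D2:**
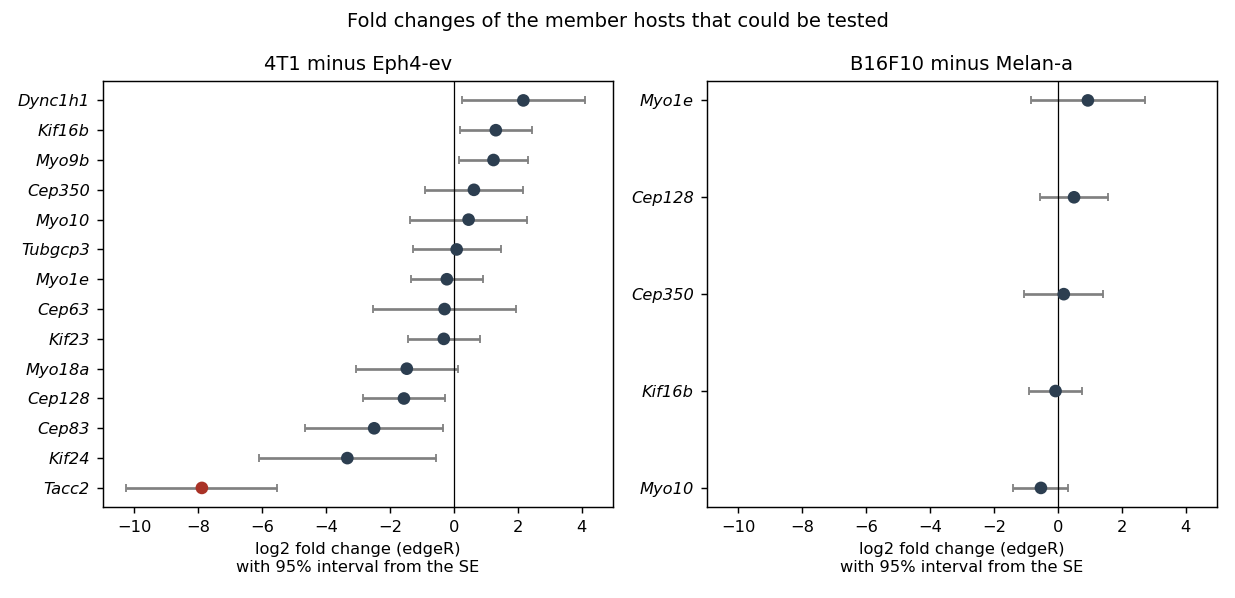
The log2 fold change by edgeR (horizontal axis) of each member host that passed the count minimum, 14 in 4T1 over Eph4-ev (left) and 5 in B16F10 over Melan-a (right), with 95% intervals from the SE. Tacc2, in red, is the host that was called, at -7.89, and the 6 hosts whose intervals also leave out 0 did not pass the adjusted threshold.

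Tacc2 circRNA was present in both non-tumour lines and had no read in either tumour line. Tacc2 encodes a coiled-coil protein of the TACC family that binds the centrosome and spindle microtubules. The 3 Eph4-ev libraries had 47, 27 and 41 reads (928, 476.6 and 738.1 RPM, mean 714 ± 227, SD, n = 3), and the 3 4T1 libraries had 0, 0 and 0. The difference was larger than the spread between libraries, and the 2 lines did not overlap. With a floor of 3 reads over the 3 4T1 libraries, the level was at least 18.3-fold lower in 4T1. Here and below, folds given as at least a value set the line without reads to 3 reads. They take the reads of the other line as exact, so they are not lower limits of an interval. The edgeR adjusted p was 0.00068 with a log2 fold change of -7.89 (SE 1.21), a fitted size that depends on how the test treats the zeros. The adjusted p stayed below 0.05 under every alternative tried, from 2.07e-08 to 0.0185. The lowest value came without a filter, where the test treats the spread between libraries as known.

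In the melanocyte lineage the 3 Melan-a libraries had 4, 7 and 15 Tacc2 reads (159.5, 208.6 and 596.3 RPM, mean 321.5 ± 239.2, SD, n = 3), and the B16F10 libraries had 0, 0 and 0. The level was at least 5.55-fold lower in B16F10 by the same floor. With 26 reads in all, Tacc2 fell short of the count minimum and was not among the hosts tested. Without a filter on low counts edgeR gave an adjusted p of 0.0295 (log2 -5.90, SE 1.71). Its unadjusted p of 0.00056 is what a normal distribution gives for that log2 fold change over its SE. The spread between libraries was thus treated as known, and this p-value cannot be set directly beside those of the filtered fits. When tested on leaving out B16F10 library 1, 2 or 3, Tacc2 was not called (edgeR adjusted p 0.139, 0.121 and 0.112). The log2 fold changes in these fits were -5.94, -5.98 and -5.98. One circle held nearly all of the Tacc2 reads. Exons 4 to 5 accounted for 112 of the 115 reads in Eph4-ev (46, 25 and 41) and for 25 of the 26 in Melan-a (4, 7 and 14), and its 264 nucleotides are a multiple of 3. At the level of single circRNAs it was the 1 member called among the 15 tested in the mammary lineage (all circRNAs 17.4% called, of which 5.99% higher and 11.4% lower), with a log2 fold change of -7.87 (SE 1.16) and an edgeR adjusted p of 0.0036, and at least 17.9-fold lower. At an unadjusted p under 0.05 there were 3 of the 15. In the melanocyte lineage, where the circle was at least 5.34-fold lower, 4 member circRNAs were tested and none was called (all circRNAs 10.9%, with 5.03% higher and 5.84% lower), none had an unadjusted p under 0.05, and DESeq2 gave the same counts of calls. Without a filter the Tacc2 circle was not called in that lineage (log2 -5.81, SE 1.79, edgeR adjusted p = 0.109). A level set across the 2 lineages comes from tables normalised separately. Of the other Tacc genes, Tacc1 had 3 reads in the third 4T1 library alone, and Tacc3, a spindle protein, had 2 reads in the second B16F10 library alone.

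**Figure D3:**
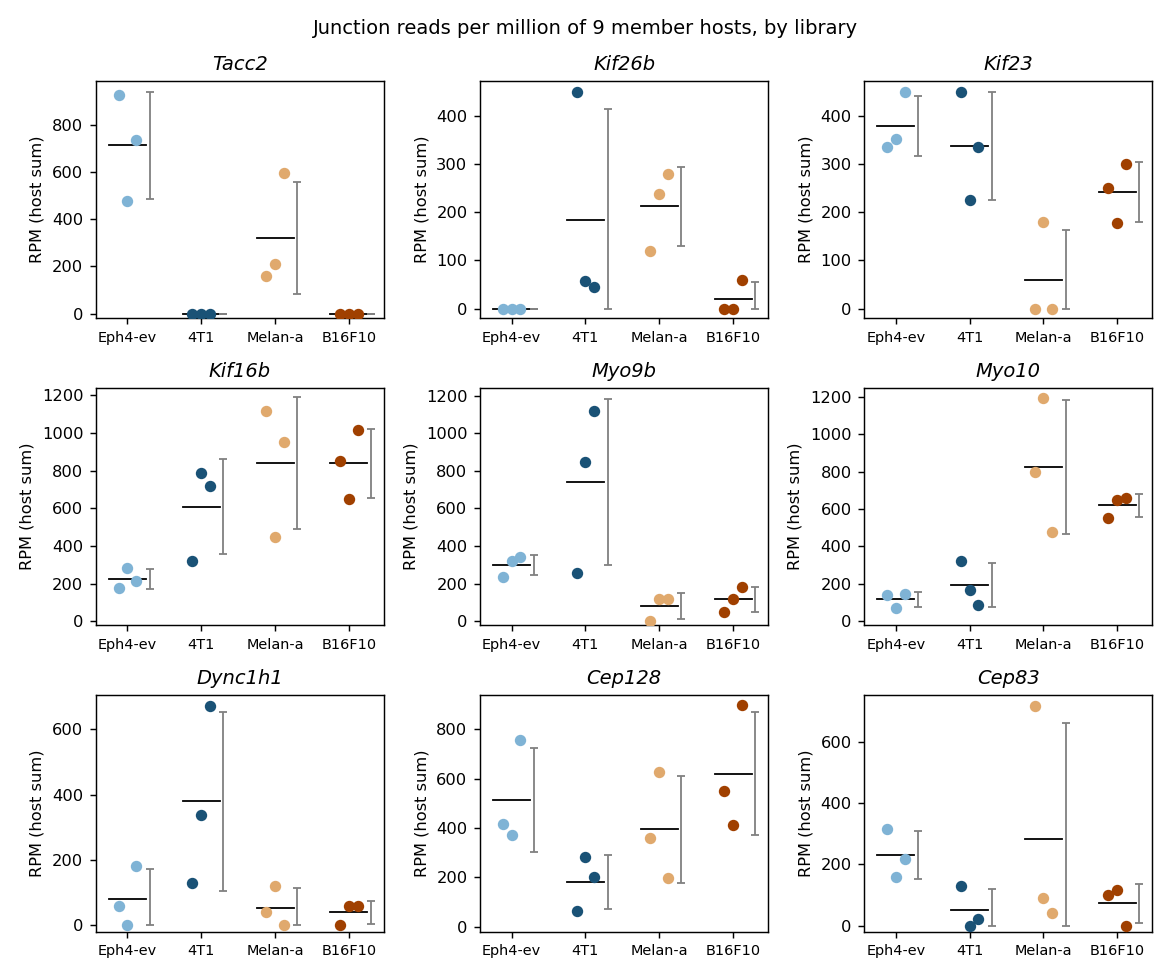
Summed RPM of 9 member hosts (vertical axis, own scale in each panel) in each of the 12 libraries, by line (horizontal axis); dots are libraries, the black line is the mean and the grey bar the SD. Tacc2 is at 0 in all 6 tumour-line libraries and between 159.5 and 928 RPM in the 6 libraries of the non-tumour lines, while Kif26b is at 0 in Eph4-ev and reaches 449.5 RPM in 4T1.

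Among the kinesins, Kif16b, which moves early endosomes, was the most abundant host in the melanocyte lineage and the second most abundant in the mammary one. Its reads were 5, 14 and 32 in 4T1 and 9, 16 and 12 in Eph4-ev, or 609 ± 252 and 225 ± 53.0 RPM (SD, n = 3). Every 4T1 library was above every Eph4-ev library, yet the log2 fold change of 1.32 (SE 0.57) did not pass the adjustment (edgeR adjusted p = 0.128). In B16F10 and Melan-a the means were the same within their spread, at 839 ± 185 RPM (17, 11 and 17 reads) and 839 ± 349 RPM (28, 15 and 24 reads), with a log2 fold change of -0.07 (SE 0.42, edgeR adjusted p = 0.940) that became 0.034 when scaled by total reads alone. Kif24, which acts on centriole ends and cilia, had 1, 0 and 0 reads in 4T1 against 10, 7 and 9 in Eph4-ev. The groups did not overlap, and the log2 fold change was -3.33 (SE 1.42), with an edgeR adjusted p of 0.120.

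Kif23, the motor of centralspindlin at the cytokinetic midbody, had host sums that overlapped between 4T1 (7, 4 and 15 reads, 337 ± 112 RPM) and Eph4-ev (17, 20 and 25 reads, 380 ± 61.6 RPM), and no difference was called. The log2 fold change was -0.31 (SE 0.58, edgeR adjusted p = 0.770, 95% interval -1.45 to 0.82). B16F10 had 5, 3 and 5 Kif23 reads and Melan-a 0, 6 and 0, too few for a test, and the second Melan-a library lay within the B16F10 range. The reads of its circles were divided unequally between lines. Exons 4 to 7 had 4, 5 and 6 reads in Eph4-ev and none in 4T1, at least 2.39-fold lower there, and exons 16 to 21 had 4, 2 and 5 reads in B16F10 and none in Melan-a, at least 5.73-fold higher in B16F10. The latter circle had 11 reads in 4T1 and 16 in Eph4-ev, and thus reads in both mammary lines.

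Kif26b, an atypical kinesin linked to non-canonical Wnt signalling, had 7, 1 and 2 reads in 4T1 but none in Eph4-ev, and 3, 8 and 7 reads in Melan-a against 0, 0 and 1 in B16F10. With the same floor of 3 reads for Eph4-ev, the level was at least 6.97-fold higher in 4T1. That value takes the 4T1 reads as exact, and 7 of them came from the first library. Between the melanocyte lines, the pooled ratio of Melan-a over B16F10 was 11.5, with a 95% counting interval of 1.82 to 480.2. All the mammary reads, and most of those in melanocytes, came from the circle of exon 3 alone. The lines did not overlap in either lineage, and the direction was opposite. Its host sums were below the count minimum, and without a filter the edgeR adjusted p was 0.0841 in the mammary and 0.476 in the melanocyte lineage.

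The remaining kinesins had few reads. Kif3b, a subunit of the heterotrimeric kinesin-2 that serves cilia, had 1, 5 and 13 reads in Eph4-ev and none in 4T1 (at least 3.03-fold lower). Kif15, a spindle kinesin, had 1, 0 and 3 reads in 4T1 against 4, 4 and 6 in Eph4-ev, which did not overlap in RPM. Its highest 4T1 level (67.2 RPM) and lowest Eph4-ev level (70.6 RPM) lay less than 1 read apart. Kif21b, a kinesin that regulates microtubule growth, had 2, 3 and 1 reads in B16F10 against 0, 1 and 0 in Melan-a, the 1 host of 50 whose B16F10 libraries all exceeded the Melan-a ones (7.23% of all hosts). In the other direction there were 2 hosts, Tacc2 and Kif26b, against 6% of all hosts. In the mammary lineage 3 of 48 hosts were above in every 4T1 library, Kif16b, Kif26b and Cep295 (8.1% of all hosts), and 7 below, Tacc2, Cep128, Myo18a, Cep83, Kif24, Kif15 and Kif3b (12.3% of all hosts). Kif2a, a microtubule depolymerase, had 15, 4 and 0 reads in Eph4-ev against 1, 3 and 0 in 4T1, which overlapped.

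Myo9b, an unconventional myosin, was the most abundant mammary member. It had 4, 15 and 50 reads in 4T1 against 12, 18 and 19 in Eph4-ev, or 741 ± 441 and 299 ± 55.0 RPM (SD, n = 3). The first 4T1 library, at 256.9 RPM, lay within the Eph4-ev range of 236.9 to 342.0 RPM and the others above it. The log2 fold change was 1.24 (SE 0.55) with an edgeR adjusted p of 0.132, and 1.57 (SE 0.46) with an adjusted p of 0.0393 when that library was left out. Without Myo9b the summed level of all members in 4T1 was 4518 RPM. In the melanocyte lines it was rarer, at 1, 2 and 3 reads in B16F10 against 0, 4 and 3 in Melan-a.

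Myo10, which carries cargo to the tips of filopodia, was the second most abundant melanocyte member. B16F10 had 11, 11 and 11 reads and Melan-a 20, 40 and 12, or 619 ± 60.4 and 822 ± 358 RPM, and the Melan-a libraries enclosed the B16F10 ones. The log2 fold change was -0.53 (SE 0.44, edgeR adjusted p = 0.541). In the mammary lines Myo10 was at 193 ± 118 RPM in 4T1 and 118 ± 40.8 RPM in Eph4-ev (5, 3 and 4 reads against 7, 4 and 8), with a log2 fold change of 0.46 (SE 0.94, edgeR adjusted p = 0.793). Myo1e, a class I myosin at membranes, had log2 fold changes of -0.22 (SE 0.58) in 4T1 and 0.94 (SE 0.91) in B16F10, with edgeR adjusted p values of 0.842 and 0.626. The 4T1 libraries had 6, 6 and 17 Myo1e reads and the Eph4-ev libraries 26, 13 and 24, which overlapped in RPM. Of the B16F10 libraries, the second had no read and the others 13 and 7, around the Melan-a libraries with 3, 9 and 3. Myo18a, which acts at the Golgi, had 3, 1 and 4 reads in 4T1 against 14, 15 and 16 in Eph4-ev, without overlap in RPM, with a log2 fold change of -1.47 (SE 0.81) and an edgeR adjusted p of 0.243.

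The mitochondrial myosin Myo19 had 7, 0 and 0 reads in B16F10 and none in Melan-a, all from 1 library. It had 2, 0 and 10 reads in 4T1 beside 1, 0 and 4 in Eph4-ev, which overlapped, and did not pass the count minimum in either lineage.

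Among the dyneins, Dync1h1, the heavy chain of cytoplasmic dynein 1, had 2, 6 and 30 reads in 4T1 against 3, 0 and 10 in Eph4-ev, all from the circle of exons 49 to 51. The levels were 380 ± 274 and 79.8 ± 91.8 RPM (SD, n = 3). The lines overlapped, since the first 4T1 library, at 128.4 RPM, was below the third Eph4-ev library, at 180.0 RPM. The log2 fold change was 2.18 (SE 0.98), with an edgeR adjusted p of 0.142. In melanocytes this circle had few reads, 0, 0 and 1 in B16F10 and 1, 4 and 0 in Melan-a, and 1 more B16F10 read came from exons 2 to 4. Dync2h1, the heavy chain of the motor of intraflagellar transport, was found mainly in the melanocyte lines, with 3, 3 and 8 reads in B16F10 against 0, 4 and 14 in Melan-a (269 ± 183 and 225 ± 293 RPM), and 4 reads in 1 Eph4-ev library alone. Neither Dync2h1 nor the light intermediate chain gene Dync1li1 (2, 4 and 5 reads in B16F10, 4, 0 and 4 in Melan-a) was tested, and both pairs of lines overlapped.

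Cep128, a protein of the subdistal appendages of the centriole, was the most frequent Cep host in both lineages. Its reads were 1, 5 and 9 in 4T1 and 21, 21 and 42 in Eph4-ev, or 183 ± 110 and 514 ± 211 RPM (SD, n = 3). Every Eph4-ev library was above every 4T1 library. The log2 fold change was -1.56 (SE 0.65) and the edgeR adjusted p 0.113. Between the melanocyte lines it was 620 ± 250 RPM in B16F10 and 395 ± 216 RPM in Melan-a (11, 7 and 15 reads against 9, 21 and 5), with overlapping libraries, a log2 fold change of 0.51 (SE 0.54) and an edgeR adjusted p of 0.668. A total of 10 Cep128 circRNAs had reads in the mammary lineage and 13 in the melanocyte lineage, so its sum is spread over many circles.

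Cep83, which is needed for the distal appendages, had 2, 0 and 1 reads in 4T1 against 16, 9 and 12 in Eph4-ev. The lines did not overlap (50.3 ± 68.6 against 230 ± 79.5 RPM), and the log2 fold change of -2.49 (SE 1.10) had an edgeR adjusted p of 0.134. In Melan-a, 18 of its reads came from the first library and 3 and 1 from the others, beside 2, 2 and 0 in B16F10. Cep350, a large centrosomal protein, had 6, 3 and 11 reads in 4T1 beside 7, 5 and 13 in Eph4-ev, and 5, 5 and 9 in B16F10 beside 12, 6 and 6 in Melan-a. The libraries overlapped in both lineages, with log2 fold changes of 0.63 (SE 0.79) in 4T1 and 0.19 (SE 0.63) in B16F10 and edgeR adjusted p values of 0.644 and 0.905. Cep63, a factor of centriole duplication, had a log2 fold change of -0.29 (SE 1.14, edgeR adjusted p = 0.899) in 4T1, where it had 3, 4 and 0 reads beside 4, 7 and 11 in Eph4-ev. It had 4, 1 and 5 reads in B16F10 beside 5, 6 and 4 in Melan-a.

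Tubgcp3, a subunit of the gamma-tubulin complex that starts microtubules, had 7, 1 and 26 reads in 4T1 against 13, 11 and 30 in Eph4-ev (363 ± 274 and 330 ± 184 RPM), with a log2 fold change of 0.09 (SE 0.70, edgeR adjusted p = 0.952). The second 4T1 library, with 1 read, lay below all 3 Eph4-ev libraries and the third above them. Cep295, a centriole protein, had 2, 4 and 3 reads in 4T1 against 3, 0 and 0 in Eph4-ev. Its lowest 4T1 level (67.2 RPM) and highest Eph4-ev level (59.2 RPM) lay less than 1 read apart. The linker protein gene Cep250 had 0, 0 and 17 reads in 4T1 against 3, 10 and 3 in Eph4-ev, all 17 from the deepest 4T1 library.

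The centromere hosts had few reads. Cenpu, part of the inner kinetochore, had 0, 5 and 13 reads in 4T1 against 0, 0 and 1 in Eph4-ev, and 4, 0 and 2 in B16F10 and none in Melan-a. In the mammary lineage the first 4T1 library lay at 0, as did 2 Eph4-ev libraries, so the lines overlapped. Cenpu was below the count minimum, with an edgeR adjusted p of 0.136 without a filter, and of 0.0391 with a log2 fold change of 4.88 (SE 1.43) when that 4T1 library was left out. Cenpa, the centromeric histone H3 variant, had 1, 3 and 0 reads in 4T1 but none in Eph4-ev, Cenpc1 had 3 in each mammary line and 1 in B16F10 beside 2 in Melan-a, and Cenpi and Cenpk had 4 and 1 reads in all.

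How a host's reads were divided among its circles is shown by the plot of circRNA reads by line, and no test was made of it. Members of 1 host share a gene and are not independent. Some circles had reads in every library of a line. Cep128 exons 3 to 5 had 8, 6 and 18 reads in the Eph4-ev libraries and 0, 0 and 4 in those of 4T1, and summed over 3 libraries 2 in Melan-a and 3 in B16F10. For Kif16b exons 4 to 12 the Melan-a libraries gave 13, 6 and 4 reads, those of B16F10 gave 6, 2 and 2, and the mammary sums were 5 in Eph4-ev and 2 in 4T1. Myo9b exon 2 held most of its host's reads in each line, with sums of 42, 59, 7 and 6 in Eph4-ev, 4T1, Melan-a and B16F10. The circles of Cep350 both start at exon 2. Exons 2 to 6 had 6, 2 and 11 reads in 4T1, where exons 2 to 5 had 0, 1 and 0.

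Other unequal sums came mostly from 1 library. In Melan-a, Cep350 exons 2 to 5 had 12, 4 and 1 reads beside 0, 2 and 5 for exons 2 to 6, so that without the first library the order was 5 against 7. Cep128 exons 23 to 25 had no reads in the mammary lines, 0, 12 and 0 in Melan-a and 0, 0 and 4 in B16F10, each sum from 1 library. Myo10 exons 15 to 18 likewise had none in the mammary lines and 1, 14 and 0 in Melan-a beside 2, 0 and 3 in B16F10, and without the second Melan-a library 1 read was left in that line. Tubgcp3 exons 18 to 20 had 0, 0 and 13 reads in 4T1 against 2, 0 and 0 in Eph4-ev, and Myo9b exons 25 to 27 had 0, 0 and 8 in 4T1 and none elsewhere. Both of these 4T1 sums came from the third library, the deepest, and were 0 without it.

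**Figure D4:**
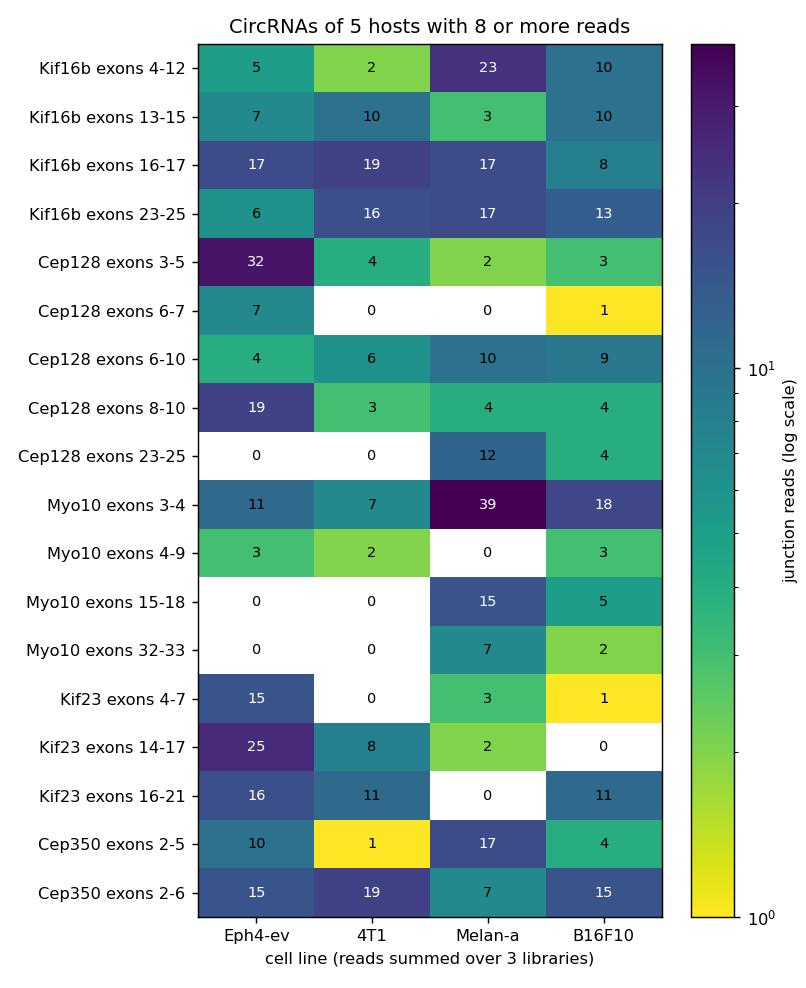
Junction reads summed over 3 libraries (colour, log scale, with the number printed; white is 0) for the circRNAs with 8 or more reads of 5 hosts (vertical axis), named by first and last exon, in the 4 lines (horizontal axis). Cep128 exons 3 to 5 has 32 reads in Eph4-ev and at most 4 in the other lines. Of the 15 reads of Myo10 exons 15 to 18 in Melan-a, 14 come from 1 library.

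By the rule that a circRNA was found only in 1 line if each of the line's 3 libraries had 2 or more reads and the other line none, the members had 0 of 100 in 4T1 (0.548% of all circRNAs) and 2 in Eph4-ev, Tacc2 exons 4 to 5 and Kif23 exons 4 to 7 (3.52%). They had 1 of 113 in B16F10, Kif23 exons 16 to 21 (0.373%), and 1 in Melan-a, Tacc2 exons 4 to 5 (0.497%). By host, the rule gave Tacc2 in Eph4-ev, against 3.51% of all hosts, and Tacc2 in Melan-a, against 0.557%, and none in 4T1 (0.719%) or B16F10 (0.351%). Tacc2 and Kif13b, the latter with 3 reads in all, were the 2 hosts with reads in both non-tumour lines and neither tumour line. No member had reads in both tumour lines and neither non-tumour line. The shares of all hosts with these 2 patterns were not counted. In both lineages every non-tumour library was deeper than every tumour-line library, and depth was not made equal for these counts.

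Whether the tumour-line difference was unlike in the 2 lineages was tested on the circRNAs listed in both, as the 4T1 minus Eph4-ev change less the B16F10 minus Melan-a change. Of 1201 hosts, 11.7% were called (4.5% with a positive difference and 7.24% with a negative one), and of the 12 members tested none was, 1 had an unadjusted p under 0.05, and DESeq2 called none. In simulated counts with changes put into 4T1 alone, this test recovered 16.9% of 4-fold and 44.4% of 8-fold changes among the hosts tested. A lack of a call here therefore says little. Without the second Melan-a library, which held all 6 Melan-a reads of the gene, Kif23 was called (log2 difference -6.46, SE 1.94, edgeR adjusted p = 0.0248). The smallest p was that of Cep128, at a log2 difference of -2.31 (SE 0.97, edgeR adjusted p = 0.124), followed by Kif16b at 1.35 (SE 0.71, 0.233) and Kif23 at -2.09 (SE 1.23, 0.301). For Tacc2 the difference could not be estimated, since both tumour lines were at 0. Kif26b was below the count minimum here, and without a filter its log2 difference was 8.15 (SE 2.37, edgeR adjusted p = 0.0195), with at most 10 reads in any line but Melan-a. It was also called without the second or the third 4T1, the third B16F10, or the first or second Melan-a library (edgeR adjusted p 0.0209 to 0.0417). The count filter asks for reads in as many libraries as the smallest line has, so leaving out a library loosens it. These calls thus come from a changed filter and are no separate support. Under the other settings Kif26b was not called or not tested.

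Genes that work with these motors and centrosomes were taken as 4 lists, of which the members with reads enough were tested in the same fits. The lists were chosen with earlier results of these data known, so their counts and medians beside those of all hosts are no independent support. Of the 10 centriole and centrosome partners tested in the mammary lineage, 3 fell and none rose in 4T1, beside 10.6% lower and 6.86% higher over all hosts. At an unadjusted p under 0.05 there were 5 of the 10 (all hosts 31.2%), and the median log2 fold change was -1.38 (all hosts -0.09). Cntln, which ties the centriole to its linker, had no reads in 4T1 against 38, 38 and 29 in Eph4-ev (at least 16.8-fold lower, edgeR adjusted p = 0.00078). Ttbk2, a kinase that starts cilium growth, had 0, 0 and 8 reads against 37, 25 and 32 (log2 -2.80, SE 0.82, edgeR adjusted p = 0.0291), and Sfi1, a centrin-binding protein, 1, 0 and 0 against 19, 14 and 8 (log2 -4.02, SE 1.29, adjusted p = 0.0432). In the melanocyte lineage 1 of 8 rose and none fell (all hosts 2.78% higher and 4.34% lower), with 2 of 8 at an unadjusted p under 0.05 (all hosts 21.2%). It was Cntln, with 12, 9 and 9 reads in B16F10 against 1, 2 and 4 in Melan-a (log2 2.55, SE 0.69, edgeR adjusted p = 0.0447), and the median was 0.41 (all hosts -0.00).

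Of 17 kinetochore and spindle partners, 1 rose and 1 fell in 4T1, beside 6.86% higher and 10.6% lower over all hosts. At an unadjusted p under 0.05 there were 4 of the 17 (all hosts 31.2%), and the median was 0.44 (all hosts -0.09). Bub1b, a spindle checkpoint kinase, had 21, 5 and 4 reads in 4T1 against 186, 158 and 183 in Eph4-ev (log2 -2.96, SE 0.54, edgeR adjusted p = 0.0016), and Stag1, a cohesin subunit, had 65, 52 and 160 against 63, 85 and 85 (log2 1.18, SE 0.23, adjusted p = 0.0027). None of 9 was called in B16F10 (median 0.15), with 2 at an unadjusted p under 0.05, and the smallest p values were those of Bub1b (log2 0.93, edgeR adjusted p = 0.188) and Zwilch (1.37, 0.217). Of 5 motor adaptors tested in the mammary lineage, 2 rose, the kinesin light chain Klc1 (log2 1.35, SE 0.35, edgeR adjusted p = 0.0167) and the dynein regulator Ndel1 (2.29, SE 0.71, 0.0375), and none fell, beside 6.86% higher and 10.6% lower over all hosts. Of the 5, 3 had an unadjusted p under 0.05 (all hosts 31.2%), and the median was 0.47 (all hosts -0.09). Neither of the 2 tested in melanocytes, Klc1 (0.17, edgeR adjusted p = 0.854) and the kinesin-binding Ktn1 (-0.37, 0.851), was called (median -0.10), and none had an unadjusted p under 0.05.

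Of 16 proteins of the microtubule and actin tracks, 1 rose and 3 fell in 4T1, beside 6.86% higher and 10.6% lower over all hosts. At an unadjusted p under 0.05 there were 5 of the 16 (all hosts 31.2%), and the median was 0.12 (all hosts -0.09). Clip4, a microtubule plus-end relative, had 0, 0 and 3 reads in 4T1 against 62, 70 and 61 in Eph4-ev (log2 -5.01, SE 0.67, edgeR adjusted p = 9.87e-05), and Ttll5, a tubulin glutamylase, had 0, 1 and 1 against 23, 22 and 30 (log2 -4.11, SE 0.92, adjusted p = 0.0065). The crosslinker Dst fell (log2 -1.58, SE 0.40, edgeR adjusted p = 0.0133), and the microtubule stabiliser Map4 rose (1.75, SE 0.47, 0.0173). None of 8 was called in B16F10 (median 0.06), with 2 at an unadjusted p under 0.05, and the smallest p values were those of Fmn1 (log2 1.69, edgeR adjusted p = 0.0536) and Ttll3 (-1.28, 0.0824). Of these 12 calls, 3 held under every alternative, Cntln in 4T1, Stag1 and Clip4, and the other 9 were lost under at least 1. Bub1b (edgeR adjusted p = 0.061), Ttll5 (0.0527) and Dst (0.107) lost theirs only without the second Eph4-ev library. For Ttbk2 (up to 0.130) and Map4 (up to 0.0938) the calls were lost only on leaving out a library, 4 of 6 and 3 of 6 of them in turn. Those of Sfi1 (up to 0.207), Klc1 (up to 0.112), Ndel1 (up to 0.181) and Cntln in B16F10 (up to 0.164) were lost on leaving out 3 to 5 of the 6 libraries in turn and under 1 to 3 other settings.

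By structure, each of the 156 member circRNAs with reads could be placed on exon ends of a GENCODE transcript (100%, all circRNAs 97.93%). The median genomic span was 6244 bases (all circRNAs 8198), the median exon number 4 (3) and the median spliced length 539 nucleotides (481). A single exon made 5 of them (3.2%, all 4.3%). The first exon was exon 2 in 37 (23.7%, all 32.3%). Of the circles, 123 lay in coding sequence alone (78.8%, all 83.3%), 31 spanned the start codon (19.9%, all 14.8%), and 68 had a spliced length that is a multiple of 3 (43.6%, all 37.7%). The circBase record, a catalogue of circRNAs, named 113 (72.4%, all 76.0%). These shares describe circRNAs that share hosts, and no test was made of them.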

How the data were processed

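The deposited data are 2 tables, 1 per lineage, that list each circRNA with its junction read count and its RPM in every library. Per the labels' protocols, RNase R was applied to the RNA before library preparation, and circRNAs were detected by CIRI2 from BWA-MEM alignments and by CIRCexplorer2 from TopHat and TopHat-Fusion. The submitters' processing notes name mm10, and how the calls of the 2 programs were combined is not given in the sources used here. The deposited count is a whole number of junction reads, and the authors' RPM is that count scaled to 1000000 junction reads per library, which was checked: 100% of RPM values gave whole reads within 0.01. No molecular identifiers are mentioned, so intervals cover counting error only.

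Rows naming several hosts, 160 in the mammary and 201 in the melanocyte table, were left out of host sums. Host sums were tested over all hosts with edgeR 4.0.16 (R 4.3.3), after a check on simulated data. Library sizes were the reads that entered each fit before filtering, so host fits left out the rows of several hosts. The fit between lineages counted only circRNAs listed in both tables. TMM scaled these sizes, and the setting of total reads alone used them unscaled. In filterByExpr the minimum count was 5 and the minimum total 10. The quasi-likelihood F test gave the p-values, which were adjusted by Benjamini-Hochberg and called under 0.05. All 12 libraries entered the test between lineages, and 6 each of the others. Alternatives were DESeq2 1.42.0, other scaling factors, no filter, a minimum count of 10, thinned counts, the replicate number as a block and each library left out. Replicate libraries differed beyond counting noise, and none was a duplicate.

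Named hosts are those called, the 8 most abundant, the 4 with the smallest p among the others, those with circRNAs found only in 1 line and the 3 smallest p between lineages; other hosts were named after their values were seen, and 1 member host is counted in the sums but not reported here by name. The members and the lists of genes were chosen with earlier results of these data known. A back-spliced junction is a single site, so levels were not divided by length.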

Additional observations from a re-analysis of the deposited data

Results flagged for a closer look

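Kif26b circRNA differed in opposite directions in the 2 lineages: 4T1 had 10 reads (7, 1 and 2) and Eph4-ev none, while B16F10 had 1 read and Melan-a 18 (3, 8 and 7). Every library of a line lay on the same side of the other line in both lineages. The gene was below the count minimum, so the difference was not tested in the fit reported, and its value without a filter is given with the comparison of lineages.

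Outside the host sums, a junction at chr2:155975671-155976558 (mm10) that the table assigns to both Cep250 and LOC108168808 had 4 reads in Eph4-ev (0, 3 and 1), none in 4T1 and 2 in the third B16F10 library.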

How the results depend on the processing

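Tacc2 remained the 1 host called lower in 4T1 under every alternative. The number of hosts called higher in 4T1, 0 as reported, was 0 to 2 on leaving out a library (Myo9b and Cenpu without the first 4T1 library). Without a filter on low counts, 1 host (Tacc2) was called lower in B16F10, where 0 had been called. That fit treats the spread between libraries as known. Between lineages, 2 hosts (Kif26b among them) then had a higher difference, where 0 had also been called. On leaving out a library, the calls between lineages were 0 to 1 higher and 0 to 1 lower. Tacc2 was not called in B16F10 on leaving out a B16F10 library. With a minimum count of 10, no member circRNA of the melanocyte lineage was tested.

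Of circRNAs found only in 1 line, 4T1 had 0 as reported, 1 with a minimum of 1 read, 1 in thinned counts and 0 to 1 on leaving out a library. Eph4-ev had 2, or 1 with a minimum of 5 reads, 1 in thinned counts and 2 to 7 on leaving out a library. B16F10 had 1, or 2 with a minimum of 1 read, 0 with 5 and 1 to 2 on leaving out a library. Melan-a had 1, or 0 with a minimum of 5 reads and 1 to 4 on leaving out a library. The summed level in 4T1 was 4518 RPM without Myo9b.

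Signs turned only for hosts that were not called, and the cause was not tested. On leaving out a library, the log2 fold change ranged from -0.67 to 0.54 for Tubgcp3, -0.11 to 0.78 for Myo10 and -1.05 to 0.38 for Cep63 in 4T1, and from -0.37 to 0.18 for Kif16b and -0.15 to 0.67 for Cep350 in B16F10. Tubgcp3 was also -0.11 without a filter and -0.17 with the replicate block, and Kif16b in B16F10 0.034 when scaled by total reads alone.

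Same-numbered libraries did not deviate together (correlations over hosts of -0.024, -0.040 and 0.020 in the mammary and -0.0020, -0.081 and -0.053 in the melanocyte lineage), so no pairing was seen. With so few reads per host, counting noise could hide a shared deviation, and the labels do not say whether such libraries were prepared together. The replicate block left the counts of members called at 0 higher and 1 lower in 4T1 and 0 in B16F10 and between lineages. Tacc2 had an adjusted p of 2.50e-06 by edgeR with it, in a fit that treats the spread between libraries as nearly known. Depth limits what could be tested: 34 mammary and 45 melanocyte hosts had too few reads to test.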
